A study of Mus musculus with 12 samples.

Results

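The genes described here are 9 transcription factors of the macrophage lineage, Spi1, Maf, Mitf, Tfec, Ets2, Etv3, Runx1, Id2 and Fli1. They were found by symbol on the array, each through its brightest probe set, and are 9 of the 18193 genes measured. The cells were macrophages grown from bone marrow of C57Bl/6 mice in M-CSF, the growth factor of macrophages. Of the 4 groups, untreated cells received no lipopolysaccharide (LPS, an outer membrane component of Gram-negative bacteria) and cells given LPS once received 100 ng/ml at the end only. Pretreated cells received 100 ng/ml LPS for 18 h, new medium and 2 h of rest, and restimulated cells received the same and then 100 ng/ml LPS again. Untreated and LPS-once cells are listed with the same 18 h and 2 h periods, with no LPS in the 18 h. The series asked how LPS tolerance, the altered response of cells that have met LPS before, changes gene expression. Each group had 3 biological replicates, lettered A, B and C, on 12 arrays in all. The sources used here do not give the length of the last LPS exposure, nor do they say whether the letters were separate mice, so p-values measure the spread between these cultures.

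Macrophage identity is set by a small number of DNA-binding proteins that act together. Spi1, also called PU.1, is an ETS factor that opens the enhancers of myeloid genes, and Runx1 acts with it early in blood development. Fli1, Ets2 and Etv3 belong to the same ETS family, whose members bind DNA around a GGAA core: Fli1 and Ets2 are known mainly as activators, and Etv3 as a repressor linked to growth arrest. Mitf and Tfec are relatives of the MiT family, which bind E-box sequences and drive lysosomal and osteoclast genes. Maf is a leucine zipper factor that promotes Il10 and restrains the division of macrophages. Id2 has no DNA-binding region and blocks E proteins by pairing with them.

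Beyond the 9 genes, the arrays had medians of 29.72 to 31.65 intensity units, and the restimulated replicate C array was dimmer than the others above the median, with a mean of 246.7 against 310.0 to 317.0. All 10 macrophage markers tried were measured, none of them under 100 units throughout, with Csf1r, the M-CSF receptor, at 9514 to 12296. The markers of B cells, T and NK cells, dendritic cells and erythroid cells stayed under 100 units on all arrays in every gene measured. Summed over 6 fibroblast markers, the signal was 2407 to 8020 units in replicates A and B and 215 to 304 in replicate C, in all 4 groups. Of 7 neutrophil markers 4 stayed under 100, and their sum was 402 to 1533 in replicate B against 203 to 573 in A and C. By group the neutrophil sum reached 1199 in untreated and 1533 in LPS-once cells, and 402 and 473 in pretreated and restimulated cells. Of 7 megakaryocyte and mast cell markers 5 stayed under 100, and the sum, mostly Pf4, a platelet chemokine, was 3607 to 5225 units in untreated, 4778 to 5761 in LPS-once, 5774 to 10592 in pretreated and 5653 to 9570 in restimulated cells. Untreated and pretreated cells, between which Id2 was called, thus did not overlap in it. These signals moved with the letter or the treatment, and their part in the values of the 9 genes was not tested. In a culture, fewer cells of a type and less RNA per cell cannot be told apart.

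The genes with the widest rises after a first LPS exposure were Tfec, Ets2 and Etv3, and their promoter windows are shown here because these members moved in the same direction. RefSeq's table for GRCm38.p6 held 250 bases before to 50 after the start for 6 of the 9 genes, in 9 windows. The windows are read along the gene's strand, chr6:16898392-16898691 on the minus strand for Tfec, chr3:87525328-87525627 on the plus strand for Etv3 and chr16:95702157-95702456 on the plus strand for Ets2. Capitals mark the ETS core GGAA (TTCC on the other strand) and the E-boxes CACGTG and CATGTG.
Tfec: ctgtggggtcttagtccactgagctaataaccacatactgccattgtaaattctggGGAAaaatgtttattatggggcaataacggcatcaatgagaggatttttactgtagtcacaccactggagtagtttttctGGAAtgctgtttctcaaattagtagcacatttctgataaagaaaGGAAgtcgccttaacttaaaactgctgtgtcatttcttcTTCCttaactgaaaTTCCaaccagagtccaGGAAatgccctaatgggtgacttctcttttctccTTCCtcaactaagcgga
Etv3: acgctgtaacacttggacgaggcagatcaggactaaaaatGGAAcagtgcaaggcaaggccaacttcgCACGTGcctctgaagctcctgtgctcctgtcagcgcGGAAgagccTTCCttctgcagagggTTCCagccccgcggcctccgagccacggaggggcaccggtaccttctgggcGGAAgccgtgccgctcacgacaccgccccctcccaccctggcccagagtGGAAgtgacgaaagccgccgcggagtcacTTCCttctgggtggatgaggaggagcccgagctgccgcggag
Ets2: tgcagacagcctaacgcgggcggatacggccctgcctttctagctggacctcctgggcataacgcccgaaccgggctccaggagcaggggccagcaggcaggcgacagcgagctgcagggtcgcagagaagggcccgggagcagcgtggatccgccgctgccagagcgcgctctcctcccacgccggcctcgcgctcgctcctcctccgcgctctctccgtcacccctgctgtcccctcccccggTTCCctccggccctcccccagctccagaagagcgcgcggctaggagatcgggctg
The Tfec and Etv3 windows each held 7 GGAA cores on either strand, and the Ets2 window held 1, where the median of 32851 promoter windows was 3. At least 1 GGAA core was in 96.0% of all windows. The Etv3 window also held CACGTG, starting 182 bases before the start (first base at -182), a sequence present in 7.15% of all windows. CATGTG, present in 14.2% of windows, and the kappaB consensus, the binding sequence of NF-kappaB factors, present in 4.51%, had no match in these 3 windows. The AP-1 sequence TGANTCA, the cyclic AMP element TGACGTCA and the longer ETS sequences CCGGAAGT and GAGGAAGT, which contain the GGAA core, had none either. They were present in 7.81%, 1.79%, 3.89% and 3.20% of all windows. Members not called higher had such matches too. Runx1 windows held 4 and 6 GGAA cores, Mitf windows 3, 2 and 2, and the Id2 window 2. A Runx1 window held CACGTG, and Mitf windows held a kappaB match and a cyclic AMP element. A link between these matches and the LPS responses was not tested. All motifs were searched on both strands, and a match is a run of letters, not a shown binding site.

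After LPS was given once, Tfec, Ets2 and Etv3 rose and Fli1 fell. A gene is called changed here at a limma adjusted p under 0.05 over all 18193 genes and at least 2-fold, on the scale log2(intensity + 16). With 4 of 9 called, the background was 13.0% of all genes called, 3.90% higher and 9.10% lower. All 9 were among 8797 genes of 100 or more units on 3 arrays. A fit of these genes alone called 710 higher and 1580 lower, a larger share. For all 9 genes the 3 LPS arrays lay entirely above or below the 3 untreated arrays, as they did for 56.6% of all genes. The median of the 9 differences was 0.66, against 0.04 over all genes and -0.28 over the 8797 genes of 100 or more units on 3 arrays.

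Tfec, a MiT factor whose expression is largely restricted to macrophages, had 464, 409.9 and 415 intensity units in untreated A, B and C and 4056, 6067 and 5083 after LPS once. All LPS arrays were far above all untreated arrays. The rise was 11.3-fold, a log2 difference of 3.50 ± 0.28 (SE from limma, 3 arrays in each group, adjusted p = 2.38e-05). Its relative Mitf, a factor of osteoclasts and pigment cells, had 1784, 1526 and 1750.1 units in untreated cells and 2585, 3343 and 3594 after LPS. The difference was 0.90 ± 0.14 (limma adjusted p = 0.000812), a shift in all 3 letters that stayed under the 2-fold minimum. Of their MiT relatives, Tfeb, a regulator of lysosome genes, fell by 1.496 on the log2 scale (limma adjusted p = 0.000202), and Tfe3 had a difference of -0.15 ± 0.13, which was not called.

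Ets2, an ETS factor activated downstream of M-CSF and Ras, had 551, 646 and 339.5 units in untreated cells and 2607, 4642 and 3968 after LPS. The lowest LPS array was well above the highest untreated array. The log2 difference was 2.84 ± 0.43 (limma adjusted p = 0.000804), and a second Ets2 probe set gave 2.88 ± 0.26, while the third lay at 10.8 to 22.6 units on all arrays, below the array medians. Etv3 had 1019, 782 and 1139 units in untreated cells and 2037, 2410.0 and 2343 after LPS, again without overlap. It rose 2.31-fold, a log2 difference of 1.21 ± 0.25 (limma adjusted p = 0.00453). Averaged over its 4 probe sets the difference was 0.92, under the 2-fold minimum. The second brightest Etv3 probe set was called higher, at 1.36 ± 0.30 (limma adjusted p = 0.00816 over all probe sets). The third gave 0.75 ± 0.27 (adjusted p = 0.0608). The dimmest, at 21.3 to 66.1 units over all arrays, gave 0.36 ± 0.21 (adjusted p = 0.238).

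Spi1 was steady within these groups, with 2516, 2452 and 2543 units in untreated cells and 3944, 3891 and 4029.9 after LPS. Its SD on the log2 scale was 0.027 and 0.025 there, against 0.15 in pretreated and 0.28 in restimulated cells. The difference of 0.66 ± 0.12 (limma adjusted p = 0.003) was present in all 3 letters, from 0.65 to 0.66, and was under 2-fold. Spi1 therefore had a small difference that was large against the spread of its untreated and LPS-once replicates.

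Fli1, an ETS activator of blood and vessel cells, moved the other way. It had 692, 675 and 815 units in untreated cells and 142, 147 and 99.6 after LPS. No LPS array came near the untreated range. Fli1 fell by 2.36 on the log2 scale, a 5.15-fold change (SE 0.20, limma adjusted p = 3.57e-05), and a second probe set gave -2.55 ± 0.24. Runx1 had 472, 492 and 594 units in untreated cells and 245, 326 and 256 after LPS, a difference of -0.88 ± 0.26 (limma adjusted p = 0.0254) under the 2-fold minimum. The 6 Runx1 probe sets disagreed: one of them, with 85.1 to 91.8 units in untreated cells and 119 to 198 after LPS, had a difference of 0.68 ± 0.20 (limma adjusted p = 0.0276 over all probe sets), and the mean of all 6 was -0.07. Id2 had 2535, 2536 and 3461 units in untreated cells and 2008, 1908 and 2234 after LPS, a difference of -0.46 ± 0.23 (limma adjusted p = 0.151). Its other probe sets gave larger differences, -0.88 ± 0.15 (adjusted p = 0.0018 over all probe sets, under 2-fold) for the one of similar brightness and -1.04 ± 0.30 (adjusted p = 0.0288, called lower) for the dim one.

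Of the 9 genes, Maf had the widest spread between the arrays of cells given LPS once (SD 0.72 on the log2 scale). Its brightest probe set had 3805, 3616 and 3651 units in untreated cells and 3449, 1400.1 and 1503 after LPS, so that replicate A stayed near the untreated level and B and C lay lower. The differences by letter were -0.14, -1.36 and -1.27, and their mean of -0.92 ± 0.45 was not called (limma adjusted p = 0.148). Another Maf probe set, at 909, 751 and 679 units in untreated cells and 257, 62.6 and 70.3 after LPS, was lower in all 3 letters by limma over all probe sets (-2.69 ± 0.60, adjusted p = 0.00845). The second brightest Maf probe set gave -2.64 ± 0.62 (adjusted p = 0.0104). Averaged over its 6 probe sets Maf was called lower, at -1.53 (limma adjusted p = 0.042), and the brightest probe set alone was called without the LPS-once replicate A array (-1.34, adjusted p = 0.0456). That array was the LPS-once array nearest the untreated mean for 5 of the 9 genes, Maf, Mitf, Tfec, Ets2 and Etv3, and for 48.2% of all genes called in this comparison. Without it Mitf was called too, at 1.04 (limma adjusted p = 0.000353).

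**Figure D1:**
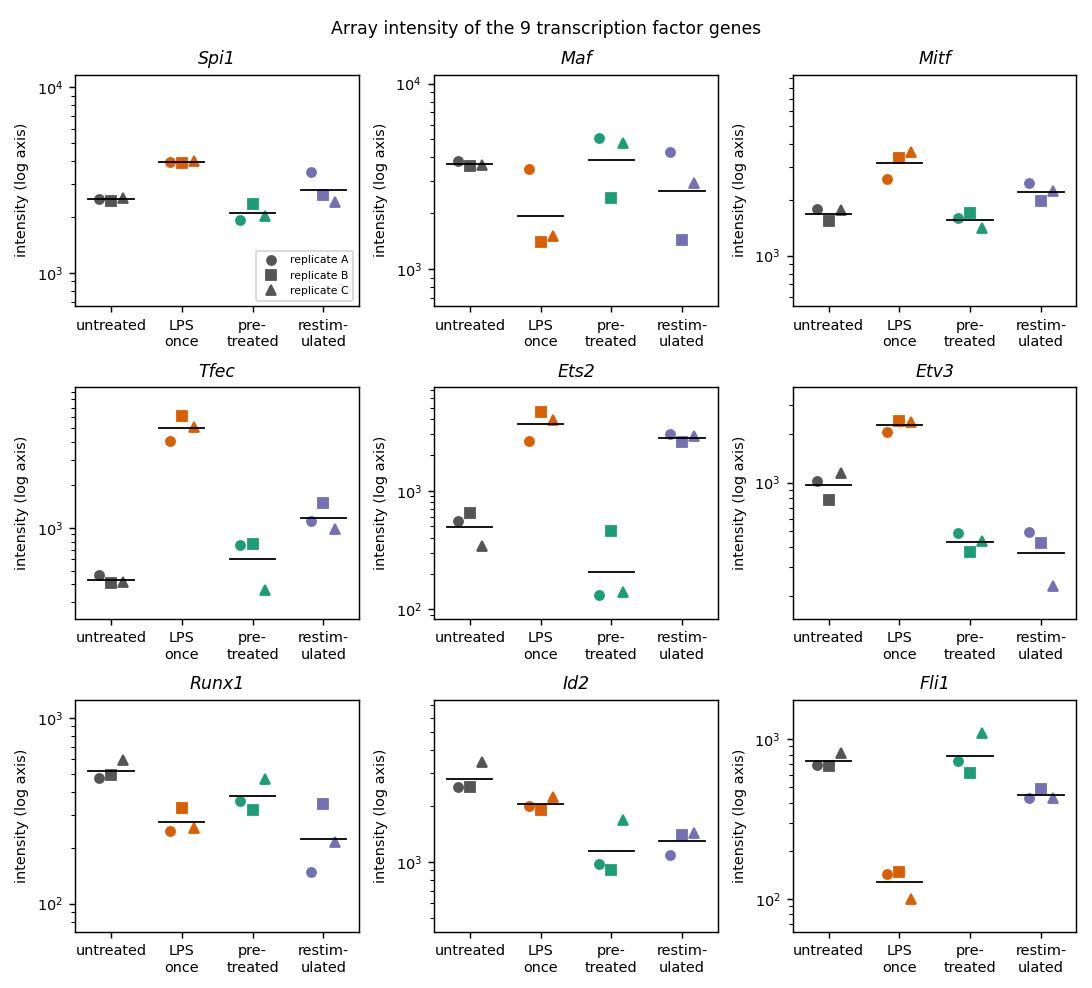
Intensity (log axis) of each of the 9 genes in the 4 groups; each point is 1 array, its shape the replicate letter and its colour the group, and each line the group mean on the log2(intensity + 16) scale. Tfec stands at 4056 to 6067 units after LPS once and at 978 to 1489 after restimulation, while Ets2 reaches 2549 to 2988 units in restimulated cells.

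**Figure D2:**
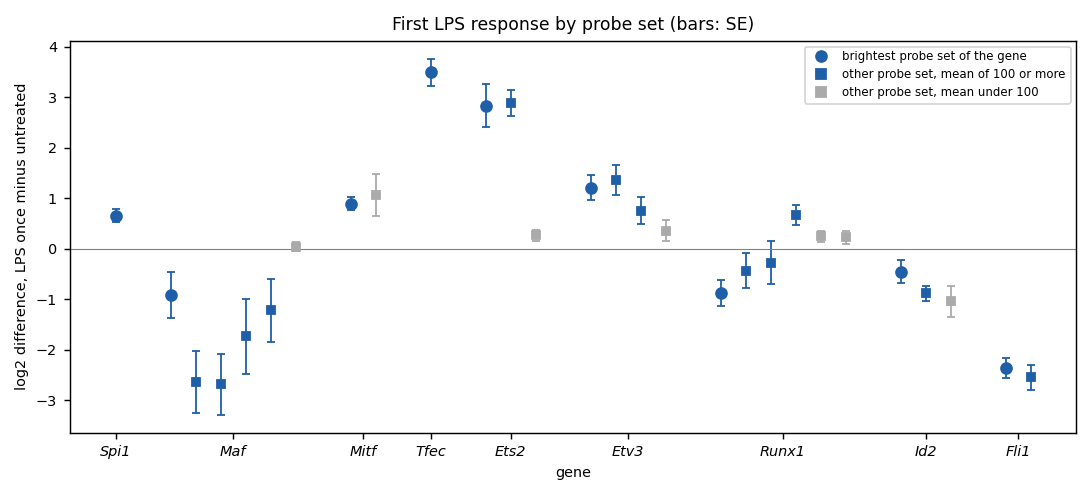
Log2 difference of LPS once minus untreated (y axis) for every probe set of each gene (x axis), with SE bars; circles are the brightest probe sets, squares the others, and grey marks probe sets with a mean under 100 units. The Maf probe sets spread from -2.69 to 0.05 and the Runx1 probe sets from -0.88 to 0.68.

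Once the pretreated cells had rested, 1 of the 9 genes was called against untreated cells, where 0.599% of all genes were called, 0.308% of them lower. This comparison uses the same untreated arrays as the first. Of the 8797 genes of 100 or more units on 3 arrays, fitted alone, 81 were called higher and 79 lower. Pretreated and untreated arrays did not overlap for 4 of the 9 genes, against 27.3% of all genes. Id2 had 979.9, 905 and 1686 units in pretreated A, B and C, all below the untreated range of 2535 to 3461. It fell by 1.29 on the log2 scale (SE 0.23, limma adjusted p = 0.0344). The call was lost on the 6 arrays of the pair alone (adjusted p = 0.0768) and without any 1 of 9 of the 12 arrays, at adjusted p from 0.0505 to 0.143, while a second Id2 probe set was lower with an adjusted p of 0.000813 (-1.73 ± 0.15).

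Etv3 was at 491, 376 and 434 units in pretreated cells, each under the lowest untreated array. Its difference of -1.14 ± 0.25 was not called (limma adjusted p = 0.0771), and it was called after quantile normalization (-1.15, adjusted p = 0.0117) and when restimulated replicate C was left out (adjusted p = 0.00932). Ets2 had 133, 460.2 and 141 units, where replicate B lay within the untreated range and A and C below it, and its difference of -1.19 ± 0.43 was not called (limma adjusted p = 0.286). Without pretreated replicate B it was called, at -1.74 (adjusted p = 0.0409). The second Ets2 probe set gave a smaller difference, -0.21 ± 0.26 (limma adjusted p = 0.88 over all probe sets), which was not called. Tfec was at 762, 763 and 366 units, a difference of 0.47 ± 0.28 (limma adjusted p = 0.59) with replicate C below and A and B above the untreated arrays.

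The other 5 genes had differences of -0.44 to 0.12 in pretreated cells, and none was called. Fli1 was at 725, 617 and 1094 units, overlapping the untreated arrays (0.12 ± 0.20, limma adjusted p = 0.90). Spi1 was at 1932, 2367 and 2027 units (-0.25 ± 0.12), Mitf at 1597, 1689.5 and 1405 (-0.11 ± 0.14), Runx1 at 357, 319.7 and 472 (-0.44 ± 0.26) and Maf at 5061, 2427 and 4807 (0.08 ± 0.45). Maf was again the gene with the widest spread among these, with replicate B under the untreated range and A and C above it.

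When pretreated cells met LPS again, Ets2 was the single member called, against a background of 1.95% of all genes called and 0.665% higher. Of the 8797 genes of 100 or more units on 3 arrays, fitted alone, 156 were called higher and 316 lower. The groups did not overlap for 5 of the 9, against 23.1% of all genes. Ets2 went from 133, 460.2 and 141 units to 2988, 2549 and 2884 in restimulated A, B and C. The restimulated arrays were close to each other although the pretreated arrays were not. The log2 difference was 3.66 ± 0.43 (limma adjusted p = 0.00452), and the second Ets2 probe set gave 2.43 ± 0.26 (adjusted p = 0.00421 over all probe sets). On the 6 arrays of the pair alone the call was lost (limma adjusted p = 0.118), in a fit that called 1 gene higher and 0 lower over all genes. Without restimulated replicate C, the dim array, Ets2 stayed called (3.64, adjusted p = 0.0148).

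Tfec was at 1119, 1489 and 978 units in restimulated cells, above the pretreated arrays in every letter, with a difference of 0.96 ± 0.28 (limma adjusted p = 0.086). Mitf was at 2464, 1974 and 2225 units (0.50 ± 0.14, limma adjusted p = 0.0716) and Spi1 at 3487, 2640.0 and 2403 (0.42 ± 0.12, adjusted p = 0.10). Both were higher than the pretreated arrays without overlap and under 2-fold. Fli1 was at 429.6, 489 and 427 units, lower than every pretreated array (-0.80 ± 0.20, limma adjusted p = 0.0592). Etv3, at 498, 425 and 231 units, overlapped the pretreated arrays (-0.22 ± 0.25). Id2 was at 1084, 1393 and 1440.0 units (0.18 ± 0.23), Runx1 at 148, 343 and 213 (-0.73 ± 0.26) and Maf at 4299, 1445 and 2915 (-0.57 ± 0.45). Without restimulated replicate B, the array on which Runx1 was highest, Runx1 was called at -1.02 (limma adjusted p = 0.0223).

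The test of the difference between the second and the first response called 2 of the 9 genes, where 2.67% of all genes were called, 1.23% higher and 1.44% lower. Of the 8797 genes of 100 or more units on 3 arrays, fitted alone, 282 were called higher and 327 lower. For Tfec the second response was smaller than the first (a log2 difference of -2.54 ± 0.39, limma adjusted p = 0.00967), with -2.54, -2.89 and -2.19 in the 3 letters. For Fli1 the second response was less negative, by 1.57 ± 0.28 (limma adjusted p = 0.0194), with 1.43, 1.76 and 1.52 in the letters, and the call was lost without untreated replicate C (1.49, adjusted p = 0.0592). Etv3 had a difference of -1.43 ± 0.35 (limma adjusted p = 0.0555), which was called after quantile normalization (-1.19, adjusted p = 0.0194) and without restimulated replicate C (-1.12, adjusted p = 0.0205). Ets2 had 0.82 ± 0.60 (limma adjusted p = 0.566), with 2.12, -0.39 and 0.72 in the letters. Its second probe set had the opposite sign, -0.45 ± 0.36 (limma adjusted p = 0.642 over all probe sets). The size of the Ets2 response was thus not shown to differ between first and second exposure, within a wide error. Without the dim array the Tfec and Fli1 values were -2.41 and 1.602 (adjusted p = 0.0113 and 0.019). For Spi1, Mitf, Maf, Runx1 and Id2 the differences between responses were -0.24 ± 0.18, -0.40 ± 0.19, 0.36 ± 0.64, 0.15 ± 0.36 and 0.63 ± 0.32, none of them called. The second Id2 probe set was called higher here (1.07 ± 0.21, limma adjusted p = 0.0292 over all probe sets).

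Set against each other after LPS, restimulated cells had less Tfec and Etv3 and more Fli1 than cells given LPS once. These were 3 of the 9 genes, where 5.66% of all genes were called, 2.48% higher and 3.18% lower. Of the 8797 genes of 100 or more units on 3 arrays, fitted alone, 493 were called higher and 616 lower. The LPS-once arrays also enter the first comparison and the restimulated arrays the second. The groups did not overlap for 6 of the 9, against 25.7% of all genes. Etv3 fell by 2.57 on the log2 scale, a 5.94-fold change (SE 0.25, limma adjusted p = 0.000238), and restimulated cells were also below all untreated arrays. Tfec fell by 2.07 (SE 0.28, limma adjusted p = 0.00116), and its restimulated arrays still exceeded the untreated ones. Fli1 was higher by 1.69 ± 0.20 (limma adjusted p = 0.000638), with restimulated arrays between the LPS-once and the untreated ranges. Spi1 and Mitf had differences of -0.49 ± 0.12 and -0.50 ± 0.14 (limma adjusted p = 0.0262 and 0.0328), both under 2-fold. Without the dim array all 3 calls held, at -1.94 for Tfec, -2.26 for Etv3 and 1.72 for Fli1, while the adjusted p of Spi1 and Mitf became 0.0538 and 0.0529. Ets2 reached overlapping levels in the 2 LPS groups (-0.37 ± 0.43, limma adjusted p = 0.646). Id2, Maf and Runx1 had -0.65 ± 0.23, 0.44 ± 0.45 and -0.28 ± 0.26 and were not called.

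**Figure D3:**
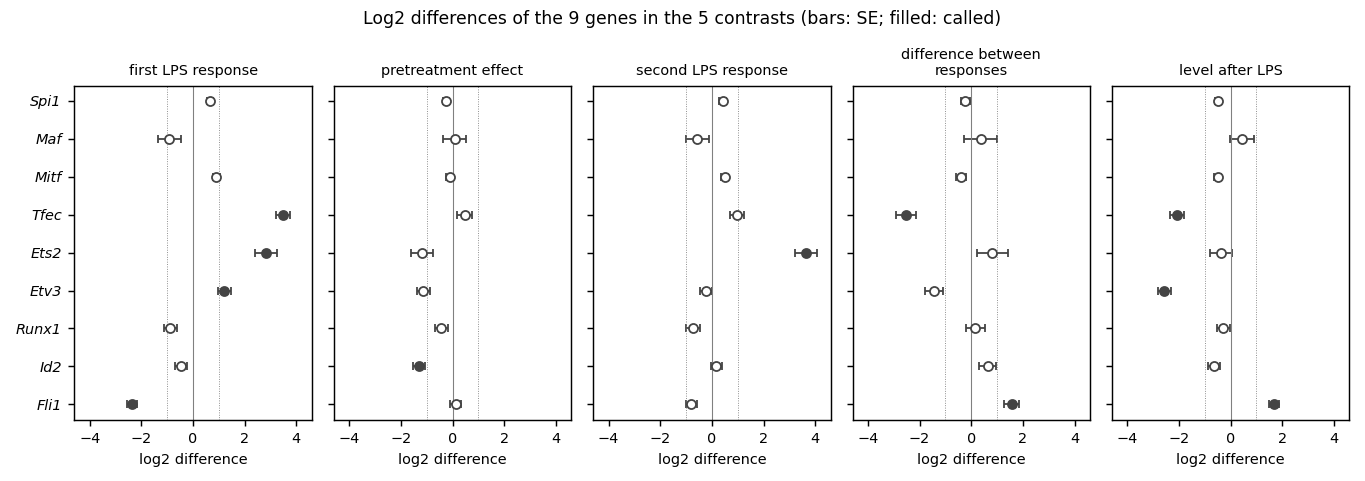
Log2 difference (x axis) of each gene in the 5 contrasts, with SE bars; filled points were called (limma adjusted p under 0.05 and at least 2-fold, dotted lines). Ets2 is filled in both LPS responses, at 2.84 and 3.66, and Tfec only in the first of them, at 3.50.

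Ordered by mean level, Ets2, Spi1 and Mitf shared the same sequence of groups. Fli1 and Maf shared another, and each of the other members had its own. Tfec ran from untreated (429 ± 29.7 units, SD, n = 3) through pretreated (630 ± 229) and restimulated (1195 ± 264) to LPS once (5068 ± 1005), and untreated and pretreated cells did not differ beyond their spread. Ets2 ran from pretreated (245 ± 187) through untreated (512 ± 157) and restimulated (2807 ± 229) to LPS once (3739 ± 1036), in which the lower 2 and the upper 2 groups each overlapped. Etv3 ran from restimulated (385 ± 138) and pretreated (434 ± 57.7), which overlapped, through untreated (980.0 ± 182) to LPS once (2264 ± 199). Fli1 ran from LPS once (99.6 to 147 units, SD 26.0) through restimulated (448 ± 35.1) to untreated (727 ± 76.3) and pretreated (mean 812, from 617 to 1094), the last 2 overlapping. Id2 ran from pretreated (1190.1 ± 431) and restimulated (1306 ± 194), which overlapped, through LPS once (2050 ± 167) to untreated (2844 ± 534). Spi1 ran from pretreated (2109 ± 229) through untreated (2504 ± 46.8) and restimulated (2843 ± 570) to LPS once (3955 ± 70.3), where restimulated cells overlapped untreated ones. Mitf ran from pretreated (1564 ± 145) and untreated (1687 ± 140), which overlapped, through restimulated (2221 ± 245) to LPS once (3174 ± 526). Runx1 ran from restimulated (235 ± 99.3) through LPS once (276 ± 43.8) and pretreated (383 ± 79.1) to untreated (519 ± 65.7), in which LPS-once cells overlapped both restimulated and pretreated cells, and the pretreated arrays lay just under the untreated ones (highest 471.6 against lowest 472.1 units). Maf, from LPS once (2118 ± 1154) through restimulated (2886 ± 1427) and untreated (3691 ± 100) to pretreated (4098 ± 1453), had no neighbours apart from each other beyond their spread.

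Relatives of these genes were counted from lists that leave out the 9. Over all genes 13.0% were called after LPS once, 0.599% in pretreated cells and 1.95% on restimulation. The shares were 2.67% for the difference between responses and 5.66% for restimulated against LPS-once cells. Of 20 further ETS genes measured, 1 was called after LPS once, Spic, a factor of red pulp macrophages, which rose by 1.91 (limma adjusted p = 0.00302), from 93.4, 65 and 65.9 units to 482, 182 and 371. On restimulation 2 of the 20 were called, Spic at 1.55 and Ets1, a lymphoid relative of Ets2, at 1.62 (limma adjusted p = 0.0471 and 0.0478), and both calls were lost with the replicate letter as a block (adjusted p = 0.0661 and 0.0642) and without most single arrays. Ets1 was lower in pretreated cells (-2.45, limma adjusted p = 0.0191), at 25.1, 45 and 31 units, near the array medians, against 249.5, 167 and 377 in untreated cells. That call was lost without untreated A or C or pretreated A or C, at adjusted p from 0.0701 to 0.0858. Of Elf1 and Etv6, brighter members of the family, neither was called, with first responses of -0.61 ± 0.28 and 0.53 ± 0.21. Over the mean of its probe sets Etv6 was called, at 1.17 after LPS once (limma adjusted p = 0.00175) and -1.24 in restimulated against LPS-once cells (adjusted p = 0.0035), where its brightest probe set gave -0.88 ± 0.21 and was called without LPS-once replicate C (-1.01) or restimulated replicate A (-1.10). The median of the 20 first responses was 0.12. In restimulated against LPS-once cells Ets1 was lower (-1.32, limma adjusted p = 0.0458), a call that the replicate block ended too (adjusted p = 0.0626). It was also lost with a pseudocount of 64 (adjusted p = 0.0511), on the groups' own arrays (0.139) and over the mean of its probe sets (-0.695, adjusted p = 0.0665). Leaving out any single array other than untreated B, untreated C or restimulated A ended the Ets1 call as well, at limma adjusted p from 0.0502 to 0.14. Etv5, named for its calls with the block after its values were seen, was called with the block and not without it. It was lower after LPS once (-1.496, limma adjusted p = 0.0177 with the block and 0.0636 without), had a difference between responses of 3.16 (adjusted p = 0.0204 and 0.0591) and was higher in restimulated than in LPS-once cells (1.51, adjusted p = 0.0308 and 0.105). Tfeb had a called difference between the responses (1.07, limma adjusted p = 0.0463), lost with the block (adjusted p = 0.0658). A pseudocount of 64 and the mean of all probe sets ended this call too (adjusted p = 0.053 and 0.0511). So did leaving out any single array other than LPS-once C or restimulated C, at limma adjusted p up to 0.118. Without LPS-once A the value fell under 2-fold (0.875).

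Among 6 Id and E protein genes, 2 fell after LPS once, where 9.10% of all genes were called lower. The share called lower was 0.308% in pretreated cells and 3.18% in restimulated against LPS-once cells. Id3, an inhibitor like Id2, fell by 1.11 and Tcf3, an E protein, by 1.10 (limma adjusted p = 0.00415 and 0.00125). Id3 lost its call without LPS-once replicate A (-0.94), and Tcf3 after quantile normalization (-0.87), with a pseudocount of 64 (-0.94) and over the mean of its probe sets (-0.86), by falling under 2-fold. In pretreated cells 1 of the 6 was called, Id3 at -1.21 (limma adjusted p = 0.0432), and with the replicate letter as a block its adjusted p was 0.0559. The call was also lost without any 1 of 7 arrays, at adjusted p from 0.0559 to 0.154. Id1 had a difference of -1.72 ± 0.61 in pretreated cells (limma adjusted p = 0.284). In restimulated against LPS-once cells Tcf4 was lower (-1.34, limma adjusted p = 0.0297), a call lost without any 1 of the 3 LPS-once arrays or of restimulated B and C, at adjusted p from 0.0685 to 0.0888. None of 5 measured Runx genes and partners was called by limma in any of the 5 contrasts, where 3, 1, 0, 1 and 2 of them had an unadjusted p under 0.05 in the first response, pretreatment, second response, difference and level after LPS. Runx3, a relative of Runx1, had a first response of 0.36 (limma adjusted p = 0.00482), under 2-fold. Cbfb, the partner that Runx proteins need for stable DNA binding, had differences between -0.44 and 0.18. Runx2 was not analysed here, and Nrl, a relative of Maf, was not called in any contrast (limma, 0 of 5 with an unadjusted p under 0.05).

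**Figure D4:**
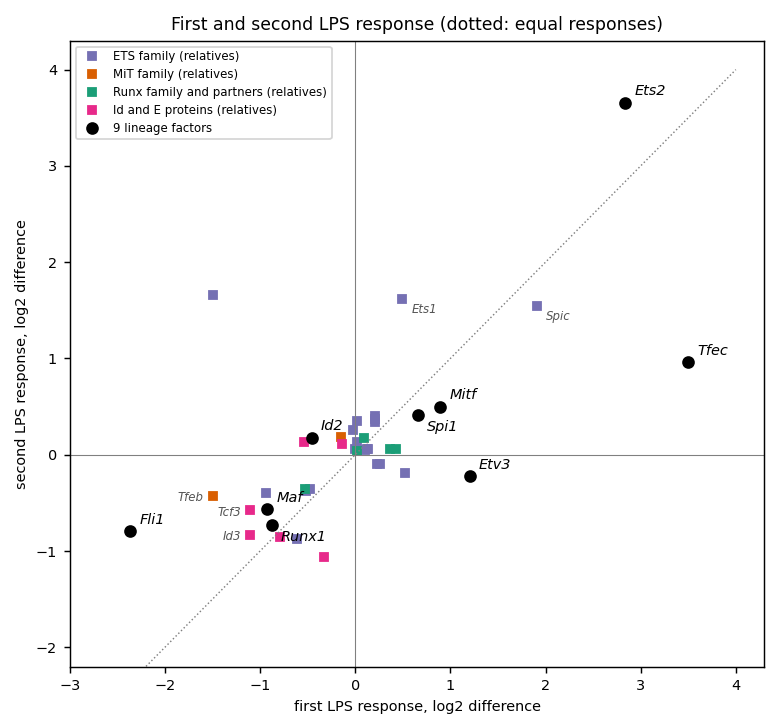
First (x axis) against second (y axis) LPS response as log2 differences, for the 9 genes (black) and for relatives of the ETS, MiT, Runx and Id and E protein lists (squares); the dotted line marks equal responses. Tfec lies below the line at 3.50 and 0.96, Ets2 above it at 2.84 and 3.66, and Fli1 above it at -2.36 and -0.80. Each gene is drawn by its brightest probe set, and the second Ets2 probe set gave 2.88 and 2.43.

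Genes that these factors are known to drive were counted as well. Of all genes, 13.0% were called after LPS once, 0.599% in pretreated cells and 1.95% on restimulation. For the difference between responses and for restimulated against LPS-once cells the shares were 2.67% and 5.66%. Of 17 measured targets of Spi1 in macrophages, 1 was called after LPS once, the scavenger receptor gene Msr1, which rose by 1.45 (limma adjusted p = 0.000681). The list had a median of -0.34, near the -0.28 over the 8797 genes of 100 or more units on 3 arrays, where all genes had 0.04. In restimulated against LPS-once cells 1 of the 17 was called, Itgam, an integrin of myeloid cells, at 1.28 (limma adjusted p = 0.00048). None of the 17 was called in pretreated cells or on restimulation, where limma gave 6 and 3 an unadjusted p under 0.05. Of 12 lysosomal and osteoclast targets of MiT factors, 1 rose and 1 fell after LPS once. Acp5, an acid phosphatase of osteoclasts, rose by 2.52 (limma adjusted p = 0.000277), from 468, 306 and 257 units to 2992, 1810.4 and 1444, and stayed high in pretreated cells at 2996, 2596 and 2115 (2.88, adjusted p = 0.00294). Ostm1, a partner of a lysosomal chloride channel, fell by 1.42 (limma adjusted p = 4.36e-05) and was higher in restimulated than in LPS-once cells (1.01, adjusted p = 0.000822), at the edge of the 2-fold minimum, which it missed without any 1 of 4 arrays (from 0.89 to 0.98). With the block 1 further gene of the 12 was called, Atp6v0d2, a subunit of the lysosomal proton pump, also named after its values were seen. It was lower after LPS once (-1.24), in pretreated cells (-1.91) and in restimulated against LPS-once cells (-1.25), with limma adjusted p = 0.00719, 0.0131 and 0.0141 with the block and 0.0603, 0.103 and 0.101 without. Acp5 and Tfec both had a called difference between the responses, -2.84 and -2.54, yet Acp5 was high in pretreated cells, where Tfec was not called.

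The genes most like each called member were found over the 12 arrays by the root mean square difference between log2 profiles centred on their own means, among 8369 other genes with a mean of at least 100 units. Nearest Tfec were 2500002B13Rik, Mapkbp1 and Pim1, at 0.34, 0.36 and 0.37 log2 units, where the spread of Tfec itself was 1.38. Nearest Ets2 were Zc3h12c, Gpd2 and Gpr84, at 0.49, 0.57 and 0.57, with a spread of 1.75 for Ets2. For Etv3 they were Prr5l, Odc1 and Ddhd1, at 0.29, 0.30 and 0.31 (spread 1.06), and for Fli1 Iffo1, Sipa1 and 5031439G07Rik, at 0.20, 0.20 and 0.23 (spread 1.01). These last 3 had log2 differences of -2.12, -2.0 and -1.99 after LPS once and of -0.85, -0.72 and -0.78 on restimulation. Being picked for their nearness to Fli1 on the same arrays, they had to lie near its values, and no test was made. For Id2, Bex3, Atr and Tmbim1 lay at 0.29, 0.30 and 0.30 against a spread of 0.57, a looser likeness.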

How the data were processed

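RNA of 12 macrophage cultures was isolated with TriFast, labelled with biotin and PE and measured by the standard procedure of Affymetrix, per the labels' protocols. The deposited values are intensities on a linear scale, read as such from the values. The sources used here do not name the program, background correction or scaling that the authors used. Of 45101 probe sets, 34945 had 1 symbol in the platform annotation, 932 had several, 9160 are unnamed here and 64 were controls. Symbols were updated by Entrez identifier through RefSeq's table for GRCm38.p6 for 34741 probe sets.

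Values were taken as log2(intensity + 16) with no further normalization, and each gene by its probe set with the highest mean of these. Group means of the 12 arrays were fitted with limma 3.58.1 in R 4.3.3 (8 residual and 1.71 prior degrees of freedom). p-values were adjusted over all genes by Benjamini-Hochberg for each of 5 contrasts. The fit was tested on simulated data. The number of arrays limits the precision.

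The members, lists and tests were chosen with earlier results of these data known. Named were the 9 members, 12 paralogs where measured, up to 3 called genes of each list with the largest change in a contrast, and the 3 genes most like each called member. The fit with every probe set as its own entry was chosen after seeing the data. Alternatives were other pseudocounts (1 and 64), quantile normalization, a filter, all probe sets, the groups' own arrays, a block and leaving out each array. The letters were checked for pairing by the deviations of arrays from their group mean. With the same letter these correlated with r from 0.302 to 0.701 over 18 pairs. With different letters r was -0.476 to -0.0217 over 36 pairs. Centring on the group mean ties these negative values to the positive ones, so they add no separate evidence. The letters were taken to pair the arrays in the block fit only. The main fit, which gave the calls, left the letters out.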

Additional observations from a re-analysis of the deposited data

Results flagged for a closer look

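For Tfec the second LPS response was smaller than the first, by a tested difference of -2.54 on the log2 scale. For Fli1 the second response was less negative than the first, by a tested difference of 1.57. Both differences had the same sign in 3 of 3 replicate letters.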

How the results depend on the processing

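Of 45 member values, 11 were called, and 7 of these kept their call and direction under every alternative that was run. The others were Ets2 in the second response, Etv3 in the first, Id2 in pretreated cells and Fli1 in the difference between responses, whose values stand above. None of the 45 changed sign with quantile normalization, and 6 uncalled values were called under at least 1 alternative. With the replicate block no member's call changed, while 100 genes were called higher and 97 lower in pretreated cells, against 53 and 56 without it. The cause of the changes below was not tested, apart from the fewer arrays or genes of a setting.

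Members called lower in the first response were 1, or 2 over the mean of all probe sets, and 1 to 2 with an array left out. In pretreated cells they were 1, or 2 after quantile normalization and with only genes of 100 or more on 3 arrays, and 0 to 2 with an array left out. In the second response members called higher were 1, or 0 on the arrays of the groups compared, and those called lower 0 to 1 with an array left out. In the difference between responses those called lower were 1, or 2 after quantile normalization and with the filter, 1 to 2 with an array left out, and those called higher 0 to 1.

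Over all genes, quantile normalization and the filter each called 81 higher in pretreated cells, and a pseudocount of 64 called 33 lower. Leaving out an array gave 26 to 77 higher and 25 to 75 lower. In the second response the arrays of the groups compared gave 1 higher and 0 lower (main 121 and 234), a pseudocount of 64 gave 153 lower and the mean of all probe sets 140 lower, and leaving out an array 60 to 167 higher and 35 to 463 lower. In the difference between responses a pseudocount of 64 gave 128 higher (main 223), the mean of all probe sets 124, and leaving out an array 74 to 480 higher and 124 to 292 lower (main 262). In the level after LPS these counts were 273, 287 and 306 to 733 higher (main 451), and 251 higher and 341 lower (main 578) on the arrays of the groups compared. Dim probe sets limit what can be read from Ets1 and from the lower probe sets of Maf, Runx1, Ets2 and Etv3.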
